A study of Mus musculus with 8 samples.

Results

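Messenger RNA of the cytosolic ribosomal proteins was examined in immortalised mouse embryonic fibroblasts (MEFs) before and after an acute challenge with hydrogen peroxide. The members were the rows of the count table whose symbol is Rpl or Rps followed by a number or by p and a digit, with an optional closing a, l or x. This gave 82 of 19041 rows, 50 of the large (60S) subunit and 32 of the small (40S) subunit, and 6 of the 82 were paralogues (Rpl3l, Rpl7l1, Rpl10l, Rpl22l1, Rps27l and Rps4l). The rule used no measured value. It does not take in every gene for a protein of the ribosome. Rpsa, Fau, Rpl36al and Gnb2l1 (Rack1), for example, fall outside it.

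The cells came from Stat3 fl/fl embryos. In all groups the endogenous Stat3 gene had been deleted with an MSCV vector for Cre and Thy1.1, and the cells were then transduced with GFP and either WT-Stat3 (-/-WT, called WT cells) or Stat3-C3S (-/-C3S, called C3S cells), whose oxidation-sensitive cysteines are replaced. Each line was 1 polyclonal population sorted for Thy1.1 and then for GFP, used at passage 15 to 20, so a difference between lines cannot be told apart from a difference between these populations. Cells were left untreated (basal) or given 100 µM H2O2 for 2 h, with 2 libraries in each of the 4 groups. The time is that of the sample labels, and the study's methods give a shorter one for preparing RNA, so the exact time is uncertain. The study calls its replicates biological without saying how the cultures were kept apart, and p-values measure only the spread between these libraries.

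A ribosome is built from ribosomal RNA and one copy of most ribosomal proteins, with the acidic proteins of the lateral stalk present in more than one copy. The mRNAs of these proteins are abundant and stable, and nearly all begin with a 5′ terminal oligopyrimidine tract, an unbroken run of C and U. Through this tract their translation is controlled by the kinase mTOR and the RNA-binding protein Larp1, so that the level of the mRNA, which is what was measured here, and the output of protein can differ.

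The tract is shown first, because it is the sequence feature that the family shares. RefSeq promoters of build GRCm38.p6 were matched by symbol for 61 of the 82 members, with the first listed start of each gene. In the following sequences, written 5′ to 3′ from 15 bases before to 15 bases from the annotated start onwards, capitals mark the run of C and T that covers the start. The first set comprises members with such a run, among them 4 that are described below by their change.

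Rplp2 (chr7:141447636-141447665, plus strand): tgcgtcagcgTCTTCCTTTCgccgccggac
Rpl28 (chr7:4792950-4792979, plus strand): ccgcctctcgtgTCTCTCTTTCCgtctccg
Rpl14 (chr9:120571502-120571531, plus strand): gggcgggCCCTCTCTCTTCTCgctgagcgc
Rps15a (chr7:118116133-118116162, minus strand): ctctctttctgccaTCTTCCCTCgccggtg
Rps6 (chr4:86857353-86857382, minus strand): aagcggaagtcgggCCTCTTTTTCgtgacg
Rpl7a (chr2:26910792-26910821, plus strand): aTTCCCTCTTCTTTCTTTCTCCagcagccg

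The second set has no pyrimidine at the annotated start. It is shown because the members with the clearest difference in peroxide response between the lines (Rpl6, Rpl9 and Rps4x) and the paralogues Rpl22l1 and Rps27l fall in it.

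Rpl6 (chr5:121204486-121204515, plus strand): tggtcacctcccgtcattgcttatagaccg
Rpl9 (chr5:65391417-65391446, minus strand): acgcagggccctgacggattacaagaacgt
Rps4x (chrX:102189377-102189406, minus strand): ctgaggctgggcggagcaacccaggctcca
Rpl22l1 (chr3:28805493-28805522, plus strand): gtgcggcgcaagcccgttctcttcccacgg
Rps27l (chr9:66946071-66946100, plus strand): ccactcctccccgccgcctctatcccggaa

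A run of at least 8 pyrimidines over the start was found in 15 of the 61 members (24.6%, exact 95% binomial interval 14.5 to 37.3%), against 3.82% of 27025 mouse promoters. Annotated starts can lie some bases from the true one. When any position within 50 bases of the start was allowed, 40 of 61 members (65.6%) had a run of at least 10 pyrimidines, against 18% of all promoters. In Rpl22l1 a run of 10 begins at base 2, in Rpl9 one of 10 at base 30 and in Rpl6 one of 11 at base 32. The longest runs were 9 in Rps27l and 7 in Rps4x.

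Other motifs were sought on both strands from 250 bases before to 50 bases after the start. The Ets core CCGGAA was present in 30 of 61 members (49.2%) and in 15.2% of all promoters. The Sp1 box GGGCGG was present in 37 of 61 (60.7%) and in 35.9% of all. The YY1 motif AAGATGGC was present in 5 of 61 (8.20%) and in 2.88% of all. The palindrome TTCCNGGAA, which Stat proteins can bind, was present in 1 of 61 (1.64%) and in 1.15% of all promoters. The motifs do not overlap each other by design, except that the palindrome and the Ets core share the letters GGAA. With C or G as its middle base, the palindrome holds the whole Ets core on 1 of its strands. A match describes these letters only.

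The promoter classes had similar changes. The 15 members with a run of at least 8 over the start had a median log2 change after peroxide of 0.17 in WT cells, and the 44 tested members with a shorter run or none had 0.15. In C3S against WT cells at baseline the medians were 0.19 and 0.18.

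Library totals ran from 17050016 to 22260814 counts, and 79 of the 82 members passed the filter on low counts (a mean of at least 10 in 1 group). The others, Rpl3l, Rpl10l and Rps4l, are paralogues, the first known from striated muscle and the second from the male germ line, and none had over 5 counts in any library. Fibroblast markers summed to between 209070 and 268840 normalised counts per group, and markers of leukocytes, epithelium, endothelium, muscle, neural and erythroid cells to between 849 and 2274, most of it Map2 in C3S cells. Ptprc, Cd3e and Sox10 were at or below 3.33 in every library. Other markers of these and the remaining types were higher. Their highest values were 72.5 for Cd79a, 67.5 for Cd68, 172 for Krt8, 148.5 for Cdh1, 244 for Kdr, 101 for Des and 2013 for Map2. These marker values differed between groups, and their part in the results was not tested. In bulk RNA, fewer cells and less RNA per cell cannot be told apart.

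Ribosomal protein genes took 3.68% and 3.47% of all counts in the WT basal libraries and 4.33% in both WT H2O2 libraries. In C3S cells they took 3.93% and 3.72% in the basal libraries and 4.22% and 4.07% after H2O2. The treated libraries lay above the basal libraries in both lines. Means were 3.58 ± 0.151% in WT basal, 4.33 ± 0.00475% in WT H2O2, 3.83 ± 0.149% in C3S basal and 4.15 ± 0.102% in C3S H2O2 cells (SD, n = 2). With 2 libraries against 2, an exact permutation test cannot go below 0.333, so no test was made on these shares. Lars2, the highest row of the table, took between 1.36% and 3.17% of counts per library, lowest in WT H2O2, and no member was among the 10 highest rows.

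**Figure D1:**
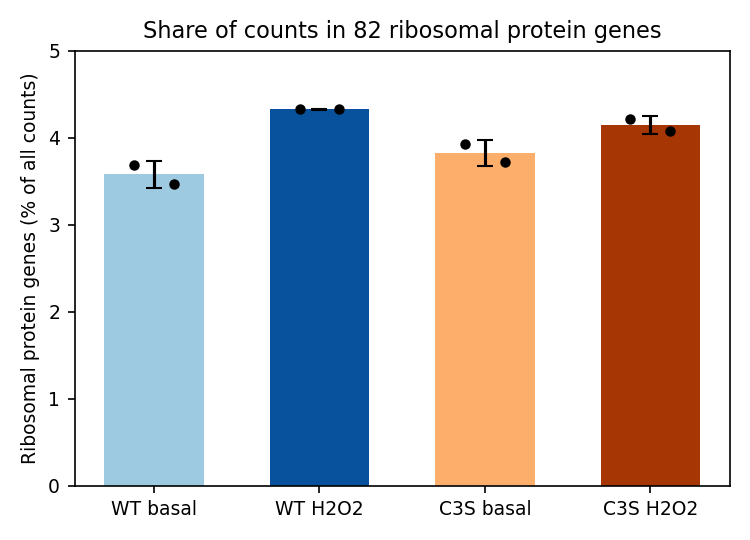
Share of all counts in the 82 ribosomal protein genes (y axis, % of all counts) in each group, as the mean of 2 libraries (bars), SD (error bars) and each library (points). The mean went from 3.58% to 4.33% in WT cells and from 3.83% to 4.15% in C3S cells after H2O2.

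The normalised read count per kilobase of exon (all annotated exons of a gene joined, GENCODE M21) differed widely between members. The highest means over the 8 libraries were those of Rplp1 (30237 ± 5286, SD), a stalk protein, Rplp0 (26236 ± 2136), which anchors the stalk, Rps2 (24900 ± 3174), which lines the mRNA entry channel, Rps3a1 (18801 ± 1181) and Rpl4 (15422 ± 2647), a protein of the exit tunnel. The tested members with the lowest level per kilobase were Rps15a (106 ± 13.8), Rpl37 (134 ± 26.3), Rpl30 (167 ± 37.9), Rpl31 (552 ± 14.7) and Rpl26 (554 ± 60.2). The median of the 79 was 4308.

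These levels rest on the counting and on the length used. Of the members, 32 share over 50% of their 50-base windows with transcripts of other genes, mostly processed pseudogenes. The authors state that only uniquely mapped reads were used. Whole numbers (within 1e-09) made up 58.4% of all values above 0, so some counts had been divided in a way that is not given, and how shared reads were treated is uncertain. Among the lowest members the shared part was 72.8% for Rpl30, 44.0% for Rpl26, 43.8% for Rpl31, 31.3% for Rpl37 and 6.12% for Rps15a. For Rps6 it was 84.6%. The windows of Rps15a come from long annotated transcripts, with a median protein-coding length of 5130 bases. The part of shared windows in the low levels was not tested. Exons of 14 members, Rpl12, Rpl28, Rps2 and Rps27a among them, overlap a gene on the other strand, and their reads are uncertain because the use of strand in counting is not given. With the median length of the protein-coding transcripts in place of the joined exons, a choice made after seeing the data, Rpl30 stood at 887 and Rpl9 at 13141 per kilobase, against 167 and 4118. The order at the top also changed, with Rps2 first (45658), then Rplp0 (32052), Rplp1, Rps12 (24571) and Rpl41 (24024), and Rps2 was first as well by the longest transcript (41651).

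After H2O2, most ribosomal protein mRNAs rose slightly in WT cells. Of the 79 tested members, 60 were higher (edgeR adjusted p under 0.05) and 0 lower, where 18.1% of the 13538 genes tested were higher and 26.2% lower. The median log2 change was 0.16, that is 11.9%, against -0.02 over all genes, and the members ranged from -0.23 to 0.42. At the study's threshold of 2-fold no member passed, while 9.36% of all genes did. Of the 46 members of the 60S subunit other than paralogues 33 rose, and of the 30 of the 40S subunit 26 rose.

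Rplp2, an acidic stalk protein that helps to recruit elongation factors, had normalised read counts of 3823 and 3454 in the WT basal libraries and 4478 and 4645 in the WT H2O2 libraries. The groups did not overlap, and the log2 change was 0.33 (SE 0.0452, edgeR adjusted p = 7.81e-09). Rplp0, the stalk base to which it is joined, went from 40123 and 39619 to 48267 and 47414, a log2 change of 0.26 (SE 0.0342, edgeR adjusted p = 6.98e-10). Both were higher in each treated WT library than in either basal one. Rpl12, which sits beside the stalk base, rose by 0.19 (SE 0.0372). The remaining stalk protein, Rplp1, changed by 0.13 (SE 0.107, edgeR adjusted p = 0.416) and did not pass.

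Rpl6, a protein of the 60S surface, stood at 23273 and 22125 in WT basal libraries and at 27204 and 27850 after H2O2. Its log2 change was 0.28 (SE 0.0355, edgeR adjusted p = 3.99e-10). Rpl37, a zinc-binding protein deep in the 60S subunit, had the highest fitted change, from 202 and 208 to 312 in the first and 235 in the second treated library. The rise of 0.42 (SE 0.123, edgeR adjusted p = 0.00388) rested on the first treated library. Without it the change was 0.19 (edgeR adjusted p = 0.372), and DESeq2 did not call it (adjusted p = 0.0875).

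Members at functional centres of the ribosome moved by similar small steps in WT cells. Rps2 and Rps3, which line the channel where mRNA enters, rose by 0.22 (SE 0.0351) and 0.14 (SE 0.0364). Rps6, the substrate of S6 kinase, rose by 0.11 (SE 0.0366), and Rpl10, a protein added late near the peptidyl transferase centre, by 0.12 (SE 0.0368). Rps27a, made as a fusion with ubiquitin, rose by 0.13 (SE 0.0377), and Rps19, the gene most often mutated in human Diamond-Blackfan anaemia, by 0.15 (SE 0.0434). The calls of Rps3, Rps6, Rpl10, Rps27a and Rps19 were lost when either WT H2O2 library was left out, with edgeR adjusted p from 0.0601 to 0.211. Rpl4, Rpl17 and Rpl39 of the exit tunnel changed by 0.06 (SE 0.0348), 0.08 (SE 0.0383) and 0.09 (SE 0.0436) and did not pass. Nor did Rpl11, with a change of 0.09 (SE 0.0393). Rpl30 was the lowest, at -0.23 (SE 0.114, edgeR adjusted p = 0.102), with 398 and 493 counts in basal and 330 and 427 in treated libraries, which overlapped.

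The count of members that rose in WT cells was 34 without the second WT H2O2 library, 41 without the first, and 45 without the second WT basal library. The members shifted together between libraries of 1 group as well. In the first WT basal library 70 of 79 were higher than in the second, with a median log2 difference of 0.06, and the median over all genes tested was -0.01. In WT H2O2 cells 35 of 79 were higher in the first library, with a median of -0.00. The median change of 0.16 after H2O2 was larger than these shifts.

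**Figure D2:**
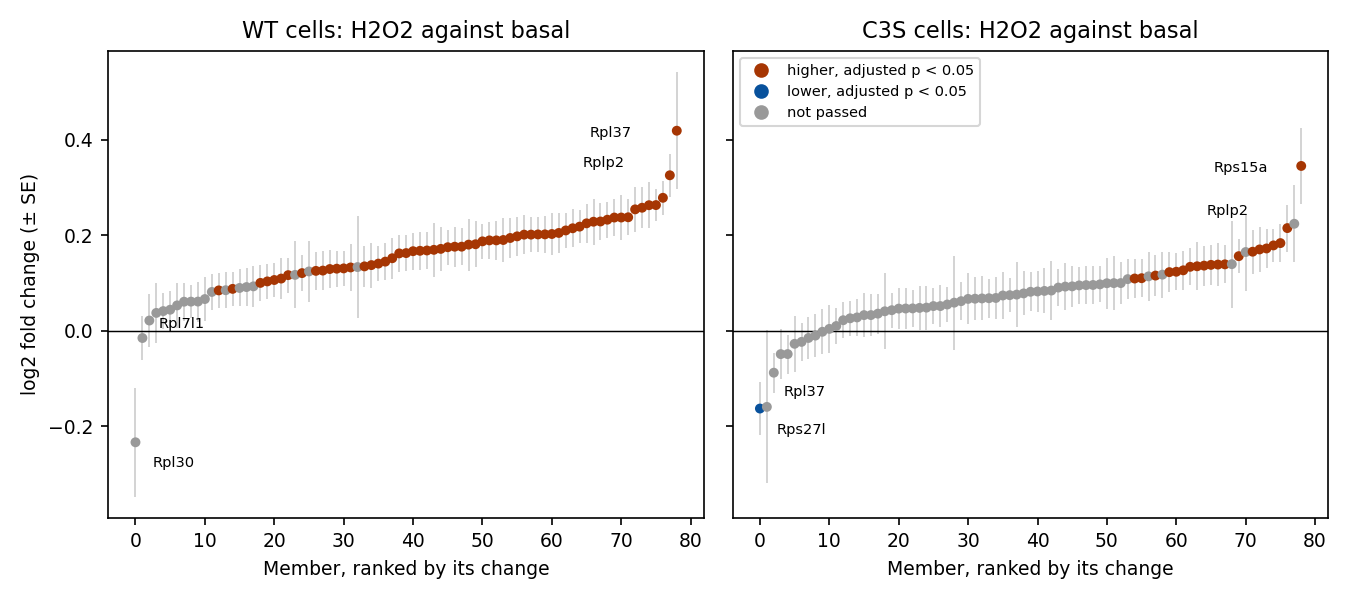
Log2 fold change after H2O2 (y axis, with SE) of the 79 tested members in WT cells (left) and C3S cells (right), ranked along the x axis within each line. Orange-brown points are higher and blue points lower at an adjusted p under 0.05, and grey points did not pass. In WT cells 60 members are higher, and in C3S cells 20 are higher and 1, Rps27l, is lower.

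In C3S cells the same comparison gave smaller values. Of the 79 members 20 were higher and 1 was lower, against 17.2% and 20.8% of all genes tested, and none passed at 2-fold, where 8.65% of all genes did. The median log2 change was 0.08, that is 5.80%, against -0.01 over all genes, and the members ranged from -0.16 to 0.34. Members of the 60S subunit were higher in 9 of 46 cases and members of the 40S subunit in 11 of 30. Of the 20 members higher in C3S cells, 18 were also higher in WT cells. They made up 30% of the 60 members higher in WT cells, and the libraries of the lines are separate.

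Rps15a, a protein of the 40S body, stood at 501 and 581 in the C3S basal libraries and at 683 and 698 after H2O2. It rose by 0.34 (SE 0.0793, edgeR adjusted p = 0.00176), and by 0.24 without the first C3S basal library (edgeR adjusted p = 0.0560). Rpl28, a 60S protein, went from 6104 and 5420 to 6556 and 6800, a log2 change of 0.21 (SE 0.0494, edgeR adjusted p = 0.00175). Without the second C3S basal library this was 0.13 (edgeR adjusted p = 0.0897). The treated libraries of both genes lay above the basal ones.

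Rpl12 rose in C3S cells from 12191 and 11593 to 13585 and 13413, by 0.18 (SE 0.0391, edgeR adjusted p = 0.000926). Rplp0 and Rps2 rose by 0.16 (SE 0.0356) and 0.18 (SE 0.0353). Rplp2 changed by 0.22 (SE 0.0809, edgeR adjusted p = 0.0632) and did not pass. The member that fell was Rps27l, a paralogue of Rps27 that is a target of p53. It went from 1972 and 1873 to 1798 and 1630, by -0.16 (SE 0.0554, edgeR adjusted p = 0.0248), and the call was lost in DESeq2 (adjusted p = 0.123), under scaling to total counts, and without either C3S basal library or the second C3S H2O2 library.

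The count in C3S cells depended on single libraries. Without the second C3S basal library 4 members were higher, without the first C3S H2O2 library 12, and without the first C3S basal library 28. Between the C3S basal libraries 70 of 79 members were higher in the first, with a median log2 difference of 0.07, and between the C3S H2O2 libraries 59 of 79 were, with a median of 0.04. The median change of 0.08 after H2O2 was therefore about as large as the shift between untreated libraries of the same line.

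Whether peroxide acted differently on the mRNAs of each line was tested with an interaction term. Of the 79 members 3 had a lower response in C3S than in WT cells and 0 a higher one, where 3.35% of all genes tested were lower and 9.18% higher. None passed at 2-fold, where 1.40% of all genes did. The fitted difference was below 0 in 66 of 79 members, with a median of -0.08 against 0.02 over all genes. The share that passed, 3.80%, was close to that of all genes in the same direction.

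Rpl9, a 60S protein near the base of the stalk, gave the clearest difference. It went from 12582 and 11926 to 13934 and 14412 in WT cells, a rise of 0.21 (SE 0.0375). In C3S cells it went from 12787 and 12282 to 12219 and 11357, a change of -0.09 (SE 0.0421, edgeR adjusted p = 0.108). The difference, C3S minus WT, was -0.30 (SE 0.0559, edgeR adjusted p = 0.000271), and no library left out ended this call.

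Rpl6 in C3S cells stood at 22913 and 21321 before and 23779 and 23443 after H2O2, a change of 0.09 (SE 0.0395, edgeR adjusted p = 0.0659). The difference from WT cells was -0.18 (SE 0.0520, edgeR adjusted p = 0.0154). Rps4x, the X-linked protein of the 40S body, went from 15816 and 15578 to 18207 and 17880 in WT cells, a rise of 0.20 (SE 0.0360). In C3S cells it was high already in basal libraries, at 19396 and 19920, and stood at 20114 and 19914 after H2O2. The difference was -0.18 (SE 0.0485, edgeR adjusted p = 0.0129).

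The calls of Rpl6 and Rps4x were each lost when 1 of 3 libraries was left out, with adjusted p from 0.0509 to 0.119. The number of members with a lower response in C3S cells was 15 without the second C3S basal library, 12 without the first WT basal library, 10 without the first C3S H2O2 library and 1 without the second WT basal library. It was 13 with TMM factors and 26 when libraries were scaled to total counts. Rpl37 and Rpl30 had the widest fitted differences, -0.58 (SE 0.241, edgeR adjusted p = 0.138) and 0.40 (SE 0.165, edgeR adjusted p = 0.134), with errors to match their low counts.

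**Figure D3:**
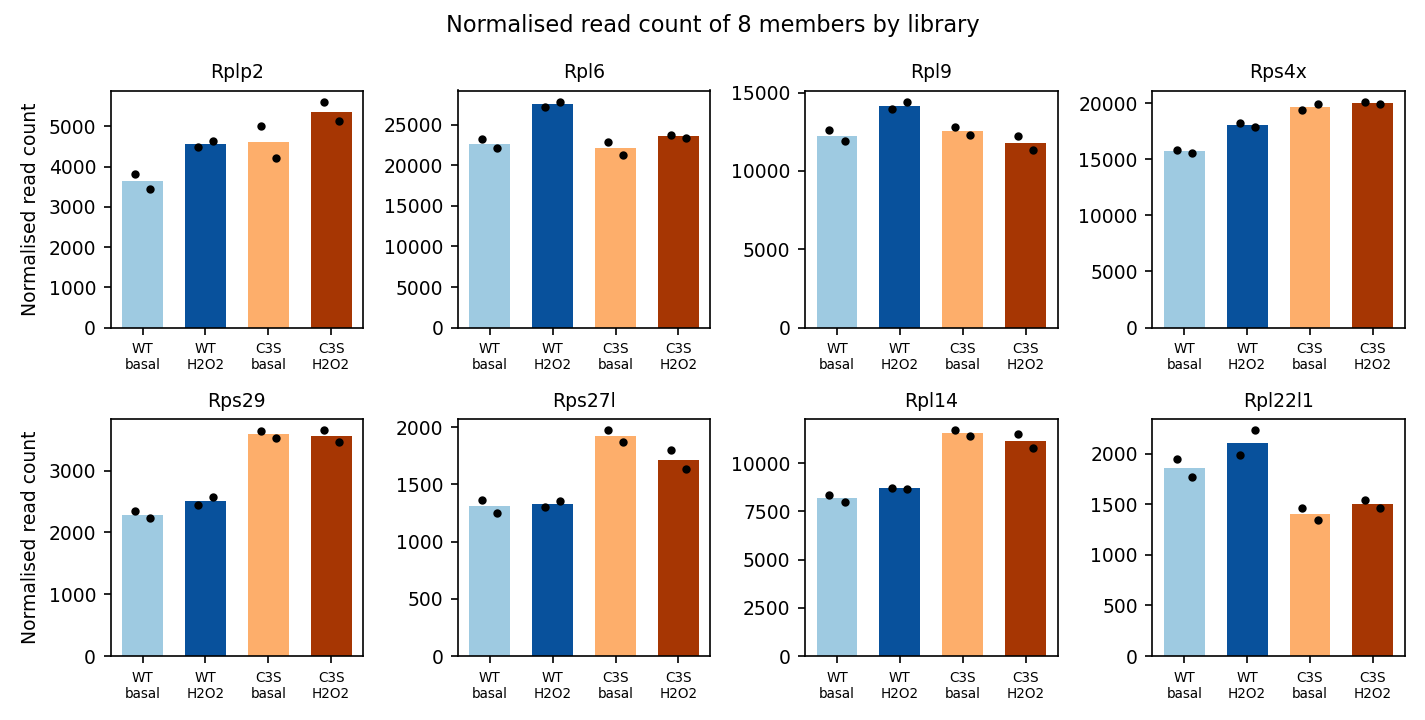
Normalised read counts of 8 members (y axes, each from 0) in the 4 groups, as the mean of 2 libraries (bars) and each library (points). Rpl9 rises after H2O2 in WT cells, to 13934 and 14412, and not in C3S cells, at 12219 and 11357, while Rps29, Rps27l and Rpl14 are higher and Rpl22l1 is lower in C3S cells in both conditions.

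The lines were then compared with each other. At baseline 53 of 79 members were higher in C3S than in WT cells and 8 were lower, where 28.5% and 28.7% of all genes tested were. None passed at 2-fold, where 15.4% of all genes did. The median was 0.19, that is 13.7%, against -0.00 over all genes, and the members ranged from -0.41 to 0.65. Of the 40S members 26 of 30 were higher and 3 lower, and of the 60S members 26 of 46 were higher and 4 lower.

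Rps29, a small zinc-binding protein of the 40S head, stood at 2353 and 2226 in WT basal and at 3638 and 3532 in C3S basal libraries. It was 1.56-fold higher (log2 0.65, SE 0.0513, edgeR adjusted p = 1.81e-16). Rpl14, a 60S protein, went from 8347 and 8003 in WT to 11708 and 11388 in C3S cells, a log2 difference of 0.50 (SE 0.0434, edgeR adjusted p = 5.75e-15). In both genes the lines were well apart.

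Among members at functional centres, Rpl4 differed by 0.45 (SE 0.0383), Rpl10 by 0.43 (SE 0.0410), Rps6 by 0.42 (SE 0.0411) and Rps19 by 0.40 (SE 0.05). Rps2 differed by 0.30 (SE 0.0385), Rpl3 of the peptidyl transferase centre by 0.27 (SE 0.0400), Rps23 of the decoding centre by 0.27 (SE 0.0452) and Rpl17 of the exit tunnel by 0.25 (SE 0.0434). Rpl11, which with Rpl5 binds 5S ribosomal RNA and can hold back Mdm2, differed by 0.24 (SE 0.0449). These 9 members with set roles were higher in C3S cells. So were Rps3, by 0.14 (SE 0.0409, edgeR adjusted p = 0.00227), and Rpl12, by 0.10 (SE 0.0426, edgeR adjusted p = 0.0360). Rps27a was lower, by -0.25 (SE 0.0431). Others did not pass: Rpl5 differed by -0.04 (SE 0.0395, edgeR adjusted p = 0.382), Rpl39 of the exit tunnel by -0.03 (SE 0.0503, edgeR adjusted p = 0.682) and Rplp0 by 0.04 (SE 0.0374, edgeR adjusted p = 0.437). Of the stalk, Rplp1 was higher by 0.49 (SE 0.0803, edgeR adjusted p = 0.00178) and Rplp2 by 0.34 (SE 0.0845, edgeR adjusted p = 0.00865). Both of these calls were lost under scaling to total counts, with adjusted p of 0.0683 and 0.160.

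The 8 lower members were Rpl15, Rpl22l1, Rpl26, Rpl27, Rpl38, Rps15a, Rps24 and Rps27a. Rps27a stood at 10286 and 10053 in WT and at 8522 and 8586 in C3S basal libraries, a log2 difference of -0.25 (SE 0.0431, edgeR adjusted p = 1.57e-06). Rps15a stood at 716 and 657 against 501 and 581, a difference of -0.34 (SE 0.0807, edgeR adjusted p = 0.000313). Without the second C3S basal library 3 members were lower.

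Paralogues were set beside the genes they resemble. Rpl22l1 had 1942 and 1769 counts in WT basal and 1466 and 1343 in C3S basal libraries, a log2 difference of -0.41 (SE 0.0584, edgeR adjusted p = 3.06e-08), while Rpl22 differed by 0.19 (SE 0.0516, edgeR adjusted p = 0.00125). Rpl22 binds RNA and is known to hold back Rpl22l1 in mouse cells. Whether it did so here was not tested. Rps27l had 1367 and 1251 counts in WT and 1972 and 1873 in C3S cells, a difference of 0.55 (SE 0.0575, edgeR adjusted p = 2.66e-12), and Rps27 differed by 0.19 (SE 0.0585, edgeR adjusted p = 0.00560). The differences within each pair were not tested. The calls of Rpl22 and Rps27 were lost without the second WT basal library and under scaling to total counts, and that of Rps27 also in DESeq2 and without the first C3S basal library.

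After H2O2, 48 members were higher in C3S than in WT cells and 17 were lower, against 32.5% and 31.9% of all genes tested. None passed at 2-fold, where 18.5% of all genes did. The median was 0.12 against -0.02 over all genes, with a range from -0.49 to 0.74. Of the 40S members 24 of 30 were higher and 2 lower, and of the 60S members 22 of 46 were higher and 14 lower. The 17 lower members included 7 of the 8 that were lower at baseline, and 10 that had not passed at baseline, among them Rpl5, Rpl6 and Rpl9. Rpl7, Rpl31 and Rpl39 passed in none of the 5 comparisons.

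Rps29 stood at 2442 and 2578 in WT H2O2 and at 3652 and 3461 in C3S H2O2 libraries, a log2 difference of 0.50 (SE 0.0430, edgeR adjusted p = 1.60e-15). Rpl4 stood at 26490 and 26692 against 36917 and 36650, a difference of 0.47 (SE 0.0308, edgeR adjusted p = 4.05e-20). Rpl30, a 60S protein at the face between the subunits, had 330 and 427 counts in WT and 644 and 620 in C3S cells, the highest difference at 0.74 (SE 0.0923, edgeR adjusted p = 6.58e-09). This is 1.67-fold, the largest fold of any member in the 5 comparisons. At baseline the difference of Rpl30 was 0.34 (SE 0.0934), and 72.8% of its 50-base windows are shared with other genes.

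On the lower side, Rpl22l1 stood at 1981 and 2229 in WT H2O2 and at 1539 and 1462 in C3S H2O2 libraries, a difference of -0.49 (SE 0.0532, edgeR adjusted p = 5.12e-11). Rpl27, a 60S protein, stood at 5752 and 5758 against 4632 and 4590, a difference of -0.32 (SE 0.0369, edgeR adjusted p = 4.50e-11). Rpl26, which lies by the end of the exit tunnel, had 900.5 and 925 against 757 and 731, a difference of -0.29 (SE 0.0650, edgeR adjusted p = 8.45e-05). Rps27a, Rpl9 and Rpl6 differed by -0.26 (SE 0.0332), -0.27 (SE 0.0341) and -0.22 (SE 0.0311).

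The baseline and post-peroxide comparisons share no library, and the order of the members was alike in both. Across the 79 members Pearson's r was 0.87 and Spearman's rho 0.91, and 55 members were above 0 and 16 below 0 in both. Across all 13538 genes tested the values were 0.81 and 0.79. The points share the size factors of their libraries, and genes are not independent replicates. Of the members higher in C3S cells, 46 were shared, 86.8% of those at baseline and 95.8% of those after H2O2. The responses of the lines to peroxide, which also share no library, gave an r of 0.07 and a rho of 0.25 across the members, and 0.78 and 0.63 across all genes. The members' responses spanned a narrow range, from -0.23 to 0.42 in WT and from -0.16 to 0.34 in C3S cells. All genes ran from -3.87 to 9.31 and from -6.59 to 9.59. The part of this range and of the errors in the low values was not tested.

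**Figure D4:**
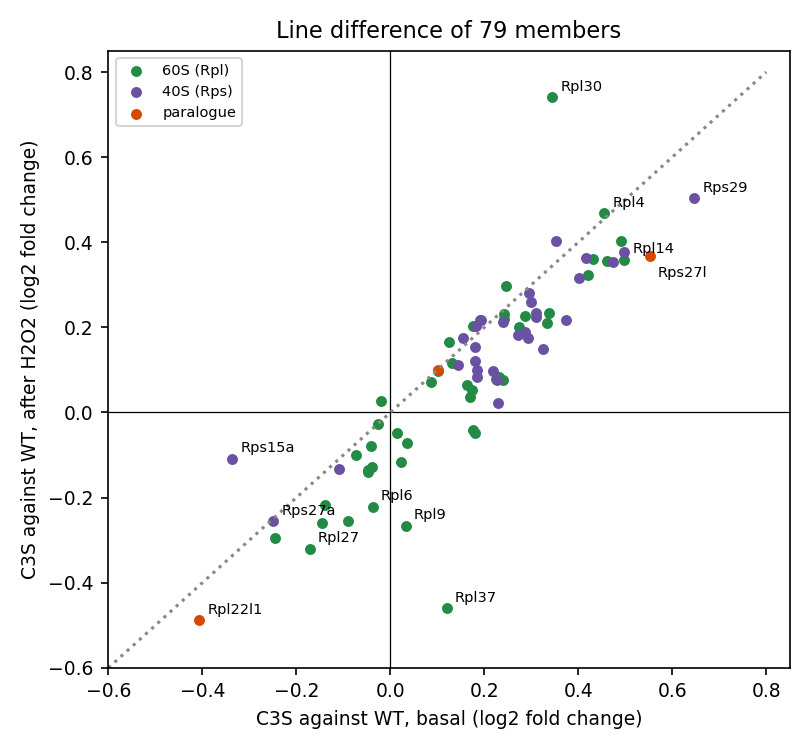
Log2 fold change of C3S against WT cells at baseline (x axis) and after H2O2 (y axis) for the 79 tested members, coloured by subunit, with the line of equal change dotted. Rps29 and Rpl4 lie high on both axes and Rpl22l1 low on both, while Rpl6 and Rpl9 lie near 0 at baseline and below 0 after H2O2.

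The split between higher and lower members depended on the scaling in the comparisons of the lines. When libraries were scaled to total counts instead of median-of-ratios size factors, the median of all genes went to -0.11 at baseline, -0.20 after H2O2 and 0.10 in the WT response. The members then split into 31 higher and 15 lower at baseline and into 17 higher and 35 lower after H2O2, and in WT cells 75 rose. Relative to the median of all genes, the members' median was 0.19 at baseline, 0.13 after H2O2, 0.18 in the WT response and 0.09 in the C3S response under either scaling. Another scaling moves all genes by nearly the same amount, so this agreement was fixed in advance and is no test of the members' shift. Under scaling to total counts Rps4x after H2O2 changed direction, from 0.15 to -0.03.

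Genes of related function gave the following counts. Over all genes tested 18.1% rose and 26.2% fell in WT cells, and 17.2% rose and 20.8% fell in C3S cells. In C3S against WT cells the shares higher and lower were 28.5% and 28.7% at baseline and 32.5% and 31.9% after H2O2. Of 22 other genes with oligopyrimidine mRNAs, such as the elongation factors Eef1a1 and Eef2, 9 rose and 2 fell after H2O2 in each line, and 17 were higher and 1 lower in C3S cells at baseline, with a median of 0.24. Of 26 initiation factors 4 rose and 5 fell in WT cells, 5 rose and 0 fell in C3S cells, and 14 were higher and 4 lower in C3S cells at baseline. The shares that rose, 15.4% in WT and 19.2% in C3S cells, were near those of all genes.

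Of 60 ribosome biogenesis factors, which process ribosomal RNA and assemble the subunits, 19 rose and 9 fell after H2O2 in WT cells, 11 rose and 12 fell in C3S cells, and 16 were higher and 14 lower in C3S cells at baseline, with a median of 0.00. After H2O2 16 of them were higher and 23 lower in C3S cells. Of 76 mitochondrial ribosomal proteins 17 rose and 3 fell in WT cells (22.4% and 3.95%). In C3S cells 4 rose and 5 fell (5.26% and 6.58%). At baseline 13 were higher and 26 lower in C3S cells (17.1% and 34.2%). The share that rose in WT cells was near the 18.1% of all genes, of which 26.2% fell. Of 22 genes of the mTOR pathway and its effectors on these mRNAs, 4 rose and 8 fell in WT cells and 8 rose and 7 fell in C3S cells. The 18.2% of them that rose in WT cells was near the share of all genes, and 36.4% fell. Biogenesis factors were near all genes in the C3S response (18.3% rose, 20% fell) and at baseline (26.7% higher, 23.3% lower). The 18 members mutated in human Diamond-Blackfan anaemia had medians of 0.16 in the WT response and 0.18 at baseline, close to the medians of all members.

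**Figure D5:**
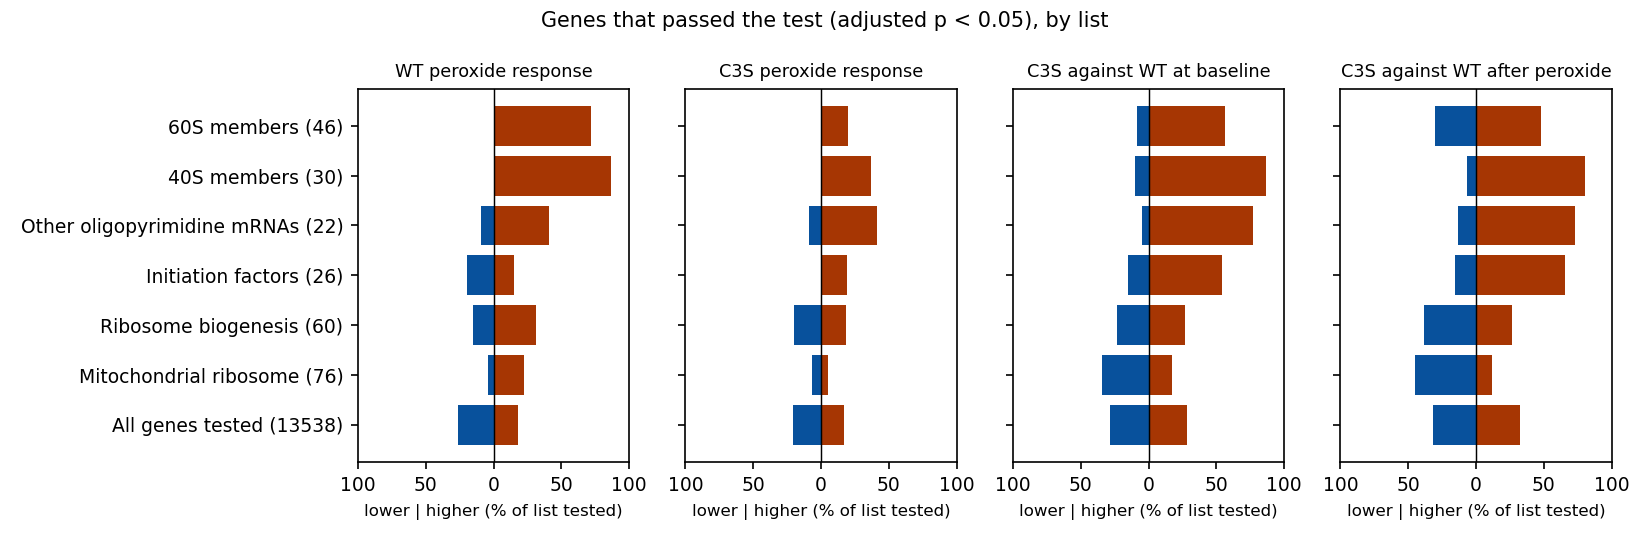
Percent of the tested genes of each list (number in brackets) that were higher (bars to the right) or lower (bars to the left) at an adjusted p under 0.05, in 4 comparisons. Of the 40S members 86.7% and of the 60S members 71.7% rose after H2O2 in WT cells, against 18.1% of all genes tested.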

How the data were processed

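RNA of 8 MEF libraries (4 groups of 2) was sequenced with a directional kit as single-end reads of 50 bases. As the study's methods describe, reads were trimmed by the authors with Scythe and Sickle, aligned to mm10 with TopHat2 2.0.10 and counted uniquely mapped exonic reads. The counting program is not given in the sources used here, nor is its use of strand. The deposited table holds expected counts, which were rounded to whole numbers for the tests. A second deposited sheet holds a signal, the expected counts divided by the authors' size factors, and size factors computed here by median of ratios equalled them. These normalised read counts are the levels printed. A further 24 columns of group values were not used. Columns carry replicate numbers that the labels do not, so libraries are called first and second by column.

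Genes with a mean of at least 10 counts in 1 group (13538 of 19041 rows) were tested with the edgeR 4.0.16 quasi-likelihood test in R 4.3.3, on the 4 libraries compared or, for the interaction, on all 8. The Benjamini-Hochberg adjustment ran over all 13538 genes. Each SE is the log2 change divided by the square root of F. DESeq2 1.42.0, TMM factors, total counts, size factors without the members, other filters (none, or a mean of 50), 1 fit of all libraries and leaving out each library were alternatives, as were a block on the column number (added later), the longest transcript as length and promoter windows from 100 bases before the start. The code was tested on simulated data. Rows with date-like names (27) could not be named. Differences between libraries of 1 group used log2 of the normalised read count plus 1. Intervals cover counting error only.

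The members and lists were chosen with earlier results of these data known. Genes named are the 3 highest and 3 lowest changes among members that passed in each comparison, members with set roles in the ribosome, paralogue pairs, and the 5 highest and 5 lowest levels per kilobase.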

Additional observations from a re-analysis of the deposited data

Results flagged for a closer look

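In 3 of 79 tested members (3.80%) the response to H2O2 was lower in C3S than in WT cells. The test was of the difference itself, the interaction of line and treatment in edgeR. Of all genes tested 3.35% were lower and 9.18% higher, so the share of members was close to that of all genes. The difference, C3S minus WT on the log2 scale, was -0.30 for Rpl9, -0.18 for Rpl6 and -0.18 for Rps4x. All had risen in WT cells and did not pass in C3S cells, a pattern shown by 42 of the 79 tested members. The calls of Rpl6 and Rps4x were each lost with some single libraries left out. What sets these members apart from the other 76 tested was not tested.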

How the results depend on the processing

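The replicate numbers of the columns are not tied to the letters of the labels. Across 13538 genes, libraries of 1 number did not deviate together (correlations of -0.01 to 0.03 between the groups compared). For the members this does not hold in every group. The first library was higher in 70 of 79 members in WT basal, 70 in C3S basal and 59 in C3S H2O2 cells, and in 35 in WT H2O2 cells. A replicate block on the column number, chosen after seeing the data, gave 1 lower member in the WT response, 33 higher and 2 lower in the C3S response and 14 lower in the difference between lines, and its other counts were within 1.5 times those without it. Scaling to total counts gave 33 higher and 0 lower members in the C3S response, 31 and 15 at baseline, 17 and 35 after H2O2, and 26 lower in the difference between lines. TMM factors gave 13 lower there. With no low-count filter 1 member was lower in the WT response, and 1 was higher and 7 lower in the difference. DESeq2 gave 0 lower in the C3S response. Without the 10 highest genes the shares of counts were 3.87% (WT basal), 4.11% (C3S basal), 4.64% (WT H2O2) and 4.47% (C3S H2O2), since the total is smaller.

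Leaving out 1 library at a time gave 34 to 66 higher and 0 to 1 lower in the WT response, 4 to 28 and 0 to 4 in the C3S response, 37 to 55 and 3 to 8 at baseline, 41 to 46 and 12 to 20 after H2O2, and 0 to 1 and 1 to 15 in the difference. Where a call is lost with a library left out, fewer samples were fitted, and the lone sample of an arm was assumed to vary like the others.

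Of 730 values of single members (65 gene and comparison pairs), 667 kept their direction and side of the threshold, 34 lost the call and 23 gained one. The reversed ones were, under total counts, Rps4x in C3S against WT cells after H2O2 (-0.0333) and Rplp0 at baseline (-0.0658), Rpl39 at baseline (0.0079 without the first WT basal and 0.0509 without the second C3S basal library, in a range from -0.0927 to 0.0509), and, in the C3S response, Rps4x (-0.0001 without the first C3S basal library, in a range from -0.0001 to 0.0407 over the libraries left out) and Rpl37 (0.117 without the second C3S H2O2 library, in a range from -0.5211 to 0.117). The cause was not tested.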

Other observations

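The table also lists 6 ribosomal protein pseudogenes, which were not members. In WT cells 1 of the 6 rose after H2O2 and 0 fell, and in C3S cells 0 rose and 1 fell. At baseline 1 was higher in C3S cells and 0 were lower. Over all genes tested 18.1% rose and 26.2% fell in WT cells, and 17.2% rose and 20.8% fell in C3S cells. At baseline 28.5% were higher and 28.7% lower in C3S cells. Their reads cannot be separated with certainty from those of the parent genes.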
